A study of Mus musculus with 6 samples.

Results

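Binding of CDK6 was examined at 10 genes that encode NRF-1 and other regulators of mitochondrial biogenesis, Nrf1, Gabpa, Gabpb1, Ppargc1a, Ppargc1b, Pprc1, Esrra, Tfam, Tfb1m and Tfb2m. The genes were chosen by name from 22028 protein-coding genes of the mouse annotation. A gene was given a promoter peak where a peak overlapped a window that began 2000 bp before and ended 200 bp after any annotated transcript start, and peaks elsewhere in the gene were taken as body peaks. The libraries came from murine pre/pro-B-cell lines transformed by BCR-ABL(p185) that were derived from Cdk6-/- cells, so no endogenous CDK6 was present in either group. One group had been transduced to overexpress HA-tagged wildtype kinase (CDK6-WT, n = 2) and the other the HA-tagged kinase-inactive mutant (CDK6-K43M, n = 2). Chromatin was fixed with DSG, a protein crosslinker, and formaldehyde, and was precipitated with an antibody against the HA tag. The signal therefore reports the tagged, overexpressed protein and not CDK6 at its native level. How the replicates were derived (separate lines, cultures or precipitations) was not given in the sources used here, and p-values measure only the spread between these libraries.

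CDK6 is a cyclin-dependent kinase of the early cell cycle that also sits on chromatin, although it has no DNA-binding domain of its own. Mitochondria depend on many nuclear genes, and NRF-1 and the ETS factor GABP (also called NRF-2) bind the promoters of a large share of them. Coactivators of the PGC-1 family join these factors and the nuclear receptor ERRα, and the chain ends at factors that act inside the organelle, TFAM, TFB1M and TFB2M. Nrf1 in this text is nuclear respiratory factor 1 and not Nfe2l2, the oxidative stress factor that shares the NRF abbreviation.

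The 4 lists held between 34729 and 39797 peaks. The libraries were of similar depth, between 9.56 and 12.04 recovered reads per kb of effective genome, and the median peak rested on 15 to 23 reads at its summit. Of 8 B-lineage genes, 7 had a promoter peak in all 4 libraries, against 33.2% of all protein-coding genes, with Igll1, Vpreb1 and Pax5 the strongest. The exception was Rag1, which had no promoter peak in either replicate 1 library. In the replicate 2 libraries it had percentiles by −log10 q within the list of 98.3 (CDK6-WT) and 92.3 (CDK6-K43M). A promoter peak was found in 0 of 8 genes of T cells, myeloid cells or erythroid cells (Cd3e, Cd3g, Cd4, Mpo, Elane, Csf1r, Gata1 and Klf1). Of all protein-coding genes, 48.2% had none in any list. The peak lists hold no expression values, so the cell type was checked by peaks alone.

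Promoter sequences are shown for the genes on which the results turn. They run from 250 bases before to 50 bases after a RefSeq start (GRCm38.p6), 5′ to 3′ on the strand of the gene. The windows are chr6:30047738-30048037 (plus strand) for Nrf1, chr16:84834874-84835173 (plus strand) for Gabpa, chr2:126675543-126675842 (minus strand) for Gabpb1, chr19:6921759-6922058 (minus strand) for Esrra, chr10:71237995-71238294 (minus strand) for Tfam, chr1:179546227-179546526 (minus strand) for Tfb2m and chr5:51567676-51567975 (minus strand) for Ppargc1a. Nrf1 and Gabpa had the strongest peaks, Gabpa, Gabpb1, Esrra and Tfb2m are the members that hold NRF-1 letters, Tfam had ETS letters close to its summits, and Ppargc1a is shown as the promoter without a peak. Capitals mark matches, on either strand, to the letters searched: NRF-1 (GCGCANGCG), the NRF-1 core (GCATGCG, which overlaps its own reverse complement and the longer NRF-1 letters), ETS (CCGGAAG), SP1 (GGGGCGG), GFY (ACTACAATT), YY1 (ATGGCGG), ERR (TNAAGGTCA), CRE (TGACGTCA) and E-box (CACGTG), where N is any base.
Nrf1: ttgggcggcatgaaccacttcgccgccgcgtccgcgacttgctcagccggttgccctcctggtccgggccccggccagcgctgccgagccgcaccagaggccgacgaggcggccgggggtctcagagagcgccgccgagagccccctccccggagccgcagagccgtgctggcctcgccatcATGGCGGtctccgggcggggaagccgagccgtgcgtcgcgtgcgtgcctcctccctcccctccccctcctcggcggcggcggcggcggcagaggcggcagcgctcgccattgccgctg
Gabpa: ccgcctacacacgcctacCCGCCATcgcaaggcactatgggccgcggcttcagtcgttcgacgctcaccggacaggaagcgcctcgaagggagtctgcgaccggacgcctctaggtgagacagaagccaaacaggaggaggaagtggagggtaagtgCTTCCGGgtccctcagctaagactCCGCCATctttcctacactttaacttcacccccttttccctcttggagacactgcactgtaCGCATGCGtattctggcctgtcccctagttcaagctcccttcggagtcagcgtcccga
Gabpb1: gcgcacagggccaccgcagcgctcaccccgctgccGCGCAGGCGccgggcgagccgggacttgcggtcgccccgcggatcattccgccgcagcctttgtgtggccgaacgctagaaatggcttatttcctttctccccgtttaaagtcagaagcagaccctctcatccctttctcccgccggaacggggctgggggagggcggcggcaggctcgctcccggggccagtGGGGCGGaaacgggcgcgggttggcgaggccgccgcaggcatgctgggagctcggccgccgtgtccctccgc
Esrra: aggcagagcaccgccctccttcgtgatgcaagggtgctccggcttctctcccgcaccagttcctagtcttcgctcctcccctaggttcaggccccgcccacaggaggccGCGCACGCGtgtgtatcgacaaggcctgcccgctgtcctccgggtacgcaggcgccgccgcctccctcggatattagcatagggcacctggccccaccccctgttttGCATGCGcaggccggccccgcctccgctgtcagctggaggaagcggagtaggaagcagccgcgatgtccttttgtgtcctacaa
Tfam: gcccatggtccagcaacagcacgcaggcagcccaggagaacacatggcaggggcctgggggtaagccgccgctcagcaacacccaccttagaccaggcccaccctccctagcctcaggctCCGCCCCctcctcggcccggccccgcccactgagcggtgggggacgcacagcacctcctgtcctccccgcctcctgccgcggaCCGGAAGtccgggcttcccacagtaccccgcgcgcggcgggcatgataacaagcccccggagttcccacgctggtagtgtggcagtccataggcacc
Tfb2m: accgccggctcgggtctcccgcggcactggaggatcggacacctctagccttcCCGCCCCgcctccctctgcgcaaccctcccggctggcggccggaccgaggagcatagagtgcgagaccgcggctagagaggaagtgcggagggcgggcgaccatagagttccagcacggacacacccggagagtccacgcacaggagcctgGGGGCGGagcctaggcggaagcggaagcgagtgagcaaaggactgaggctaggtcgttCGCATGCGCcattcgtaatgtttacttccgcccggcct
Ppargc1a: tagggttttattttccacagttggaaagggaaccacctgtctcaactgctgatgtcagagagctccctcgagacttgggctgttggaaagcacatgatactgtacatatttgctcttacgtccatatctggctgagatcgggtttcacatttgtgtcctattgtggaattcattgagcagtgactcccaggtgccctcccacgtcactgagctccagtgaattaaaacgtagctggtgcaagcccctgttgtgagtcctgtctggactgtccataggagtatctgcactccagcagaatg

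The Nrf1 promoter held neither the NRF-1 letters nor their core within 250 bp of its strongest summit. Its only match in the printed window was the YY1 letters. The NRF-1 letters stood in the promoters of Gabpb1, Esrra and Tfb2m, and the core in those of Gabpa, Esrra and Tfb2m. In Tfb2m the longer and the shorter letters are 1 overlapping stretch that starts 13 bases after the RefSeq start. Over 21263 RefSeq promoters, 8.58% held the NRF-1 letters and 4.44% the core. The Ppargc1a promoter held none of the 9 motifs and was poor in CpG, with an observed to expected ratio of 0.282 against a median of 0.567 over all promoters. In the other printed promoters this ratio lay between 0.586 (Tfam) and 0.971 (Nrf1).

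CDK6 was found at the promoters of 9 of the 10 genes, in both variants. Each of the CDK6-WT libraries had a promoter peak at 9 members, where 47.0% (replicate 1) and 40.1% (replicate 2) of all protein-coding genes had one. CDK6-K43M had 9 in replicate 1 and 8 in replicate 2, against 48.5% and 39.4% of all genes. In all 4 lists a peak was found at 8 members, Nrf1, Gabpa, Gabpb1, Ppargc1b, Pprc1, Esrra, Tfam and Tfb2m, against 33.2% of all genes. A region with a peak in at least 3 of the 4 lists, here called bound by both variants, was found at 9 members, against 41.3% of all genes. Tfb1m lacked a peak only in CDK6-K43M replicate 2, and Ppargc1a had none in any list, as did 48.2% of all genes.

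The number of bound members did not separate the variants. CDK6-WT libraries had a mean of 9.0 and CDK6-K43M libraries of 8.5, a difference of -0.5 with an exact two-sided permutation p of 1, where 2 libraries against 2 cannot give less than 0.33. Promoter CpG content moved with the presence of a peak. Among genes whose promoter had a CpG ratio of at least 0.6, 56.0% had a peak in all 4 lists, against 12.5% of genes below it. Of the 9 members with a RefSeq promoter in use here, 7 were at or above 0.6, and 6 of those 7 had a peak in all 4 lists. How far CpG content accounts for the member count was not tested.

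The strength of a peak is given as its percentile by −log10 q within its own list, where 100 is the strongest peak and 0 stands for no promoter peak. Nrf1, the gene of the DNA-binding factor that gives the group its name, lies at chr6:30047988-30153458 on the plus strand. Its strongest promoter peak reached percentiles of 98.8 and 82.3 in CDK6-WT replicates 1 and 2 and of 98.8 and 72.1 in CDK6-K43M replicates 1 and 2. The replicate 1 libraries were equal between the variants and both replicate 2 libraries were lower, so that the variants overlapped. The means were 90.6 ± 11.7 for CDK6-WT and 85.5 ± 18.9 for CDK6-K43M (SD, n = 2 each), a difference of -5.10 percentile points (exact two-sided permutation p = 1).

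The summit at Nrf1 rested on 56 and 24 reads in CDK6-WT and on 68 and 18 reads in CDK6-K43M, in the order of the replicates. Between 1.58 and 2.26 reads were expected there from the local background. All 4 summits fell in an exon, 4 to 13 bp downstream of the nearest transcript start. The peak spanned 1029 bp and 641 bp in CDK6-WT and 1246 bp in CDK6-K43M replicate 1. In CDK6-K43M replicate 2 the leading peak was 231 bp wide, and weaker peaks of 164 bp and 218 bp lay on either side of it. The stretch that the other libraries listed as 1 leading peak was thus broken up in that library.

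Nrf1 also carried 3 intronic regions with a peak in 3 of 4 lists each. The region 1002 to 1098 bp from the nearest start was missing in CDK6-K43M replicate 2, and that 5076 to 5225 bp from the nearest start in CDK6-K43M replicate 1. The region deepest in the gene, 19748 to 19782 bp from the nearest start and 87861 to 87895 bp from the transcript start at the promoter peak, was missing in CDK6-WT replicate 2. Its percentiles were 77.6 in CDK6-WT replicate 1, 31.0 in CDK6-K43M replicate 1 and 31.3 in CDK6-K43M replicate 2. The missing library differed from region to region and followed neither the variant nor the replicate number.

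**Figure D1:**
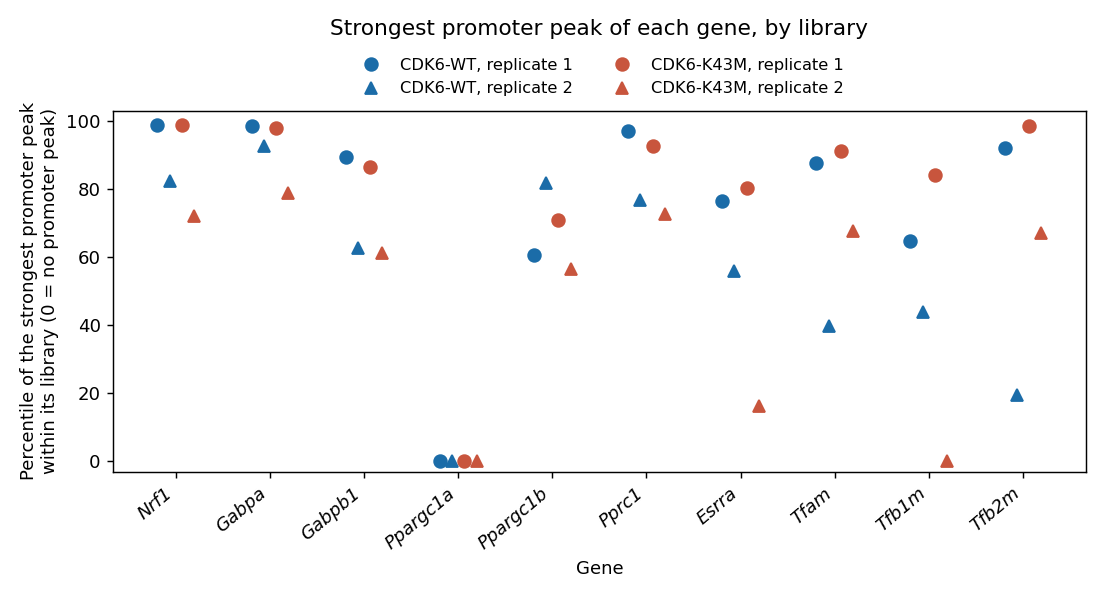
The percentile of the strongest promoter peak within its library (vertical axis, 0 for no promoter peak) is plotted for each gene, with 1 point per library, coloured by variant and shaped by replicate number. Circles (replicate 1) stand above triangles (replicate 2) within both variants at 8 of the 9 genes with a peak, whereas colours are mixed, and Ppargc1a is at 0 in all 4 libraries.

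GABP is built from an ETS-domain subunit that binds DNA, encoded by Gabpa, and a subunit that carries the activation domain, encoded by Gabpb1. Gabpa (chr16:84834925-84863779, plus strand) had percentiles of 98.6 and 92.6 in CDK6-WT and 98.1 and 78.9 in CDK6-K43M, the highest mean of the 10 genes at 92.0 ± 9.20 (SD, n = 4 libraries). Its summits held 57 and 32 reads in CDK6-WT and 65 and 20 reads in CDK6-K43M, and lay from 12 bp upstream to 20 bp downstream of the nearest start. CDK6-K43M was lower in both replicate numbers, by -0.55 and -13.7 points, and the pooled difference was -7.13 (exact two-sided permutation p = 0.667). The promoter window is shared with Atp5j, which encodes a subunit of ATP synthase, so the peak cannot be assigned to either gene. In the printed promoter the YY1 letters nearest the RefSeq window's upstream end lay 18 to 50 bp from the 4 summits, the ETS letters 89 to 121 bp and the NRF-1 core 174 to 207 bp.

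Gabpb1 (minus strand, with its 5′ end at position 126676337 of chromosome 2) was bound over a wider stretch. Percentiles were 89.6 and 62.7 in CDK6-WT and 86.4 and 61.2 in CDK6-K43M, with 37 and 19 against 41 and 17 reads at the summit. The replicate 1 libraries were both above the replicate 2 libraries, and the variants differed by -2.31 points (exact two-sided permutation p = 0.667). The replicate 1 peaks were 1442 bp and 1462 bp wide with summits 198 bp and 222 bp upstream of the nearest start, and the NRF-1 letters of the printed promoter lay 13 bp and 11 bp from them, but 85 bp (CDK6-WT) and 288 bp (CDK6-K43M) from the replicate 2 summits. In replicate 2 the same stretch was listed as several narrower peaks, and the strongest summits were 126 bp (CDK6-WT) and 13 bp (CDK6-K43M) upstream. An intronic region 1759 to 1911 bp from the nearest start had a peak in all 4 lists. Another, 19361 bp and 19388 bp from the nearest start, was listed only in the replicate 1 libraries, at percentiles of 50.1 in CDK6-WT and 74.2 in CDK6-K43M.

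Of the 3 coactivators of the PGC-1 family, 2 were bound in all 4 lists and 1 in none. They bind no DNA directly, and PGC-1α (Ppargc1a) is the inducible member best known from muscle, brown fat and liver. Ppargc1a had no promoter peak in any list. Its body peaks were confined to the replicate 2 libraries. CDK6-WT replicate 2 had peaks 904 bp and 1239 bp downstream of the nearest annotated start at percentiles of 25.5 and 66.4, and CDK6-K43M replicate 2 had peaks at 867 bp, 1251 bp and 3215 bp at percentiles of 58.4, 7.80 and 31.3. These summits rested on 9 to 19 reads. The start in question is an internal one, and the printed RefSeq promoter at the 5′ end of the gene had no peak. The regions nearest that start were thus shared between the variants within replicate 2 and absent from both replicate 1 lists. Over the whole series, 5553 of 40154 regions outside protein-coding promoters were found in both replicate 2 libraries alone.

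Ppargc1b, which encodes PGC-1β, had another order of libraries than the other genes. Its percentiles were 60.6 and 81.7 in CDK6-WT and 70.9 and 56.7 in CDK6-K43M, with 20, 24, 28 and 15 reads. CDK6-WT was higher in replicate 2 than in replicate 1, in contrast to the other bound members. The variants differed by 10.3 points in replicate 1 and by -25.1 points in replicate 2, and by -7.37 points when pooled (exact two-sided permutation p = 0.667). All 4 summits lay between 15 bp upstream and 3 bp downstream of a start. An intronic region 68456 to 68497 bp from the nearest start had a peak in all 4 lists, at percentiles of 65.4 and 25.5 in CDK6-WT and 56.5 and 52.0 in CDK6-K43M.

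Pprc1, which encodes the PGC-1-related coactivator known for its early response to growth signals, had the most peaks of the family. Its main promoter gave percentiles of 97.1 and 76.7 in CDK6-WT and 92.7 and 72.7 in CDK6-K43M, with 49, 22, 50 and 18 reads. CDK6-K43M was lower by -4.44 and -4.01 points in the 2 replicate numbers, which was less than the difference of 20.2 points between the replicate numbers (pooled difference -4.22, exact two-sided permutation p = 0.667). The GFY letters lay 87, 121, 58 and 132 bp from the summits in the 4 libraries. They were found within 100 bp of 0.782% of bound promoter summits. The letters searched were set after these promoter sequences had been seen, so that share is a description only. An intronic region 5713 to 5792 bp downstream of the nearest start was found in all 4 lists, at percentiles of 78.9, 81.0, 68.5 and 21.7. An upstream start, that of a longer transcript model, had a further peak just downstream of it in every library but CDK6-WT replicate 2, with summits at -11481 bp (CDK6-WT replicate 1), -11526 bp and -11381 bp (CDK6-K43M) from the main start. That peak also overlaps the promoter of Ldb1 and cannot be assigned to either gene, and CDK6-WT replicate 2 had a weaker peak -1580 bp from the upstream start.

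**Figure D2:**
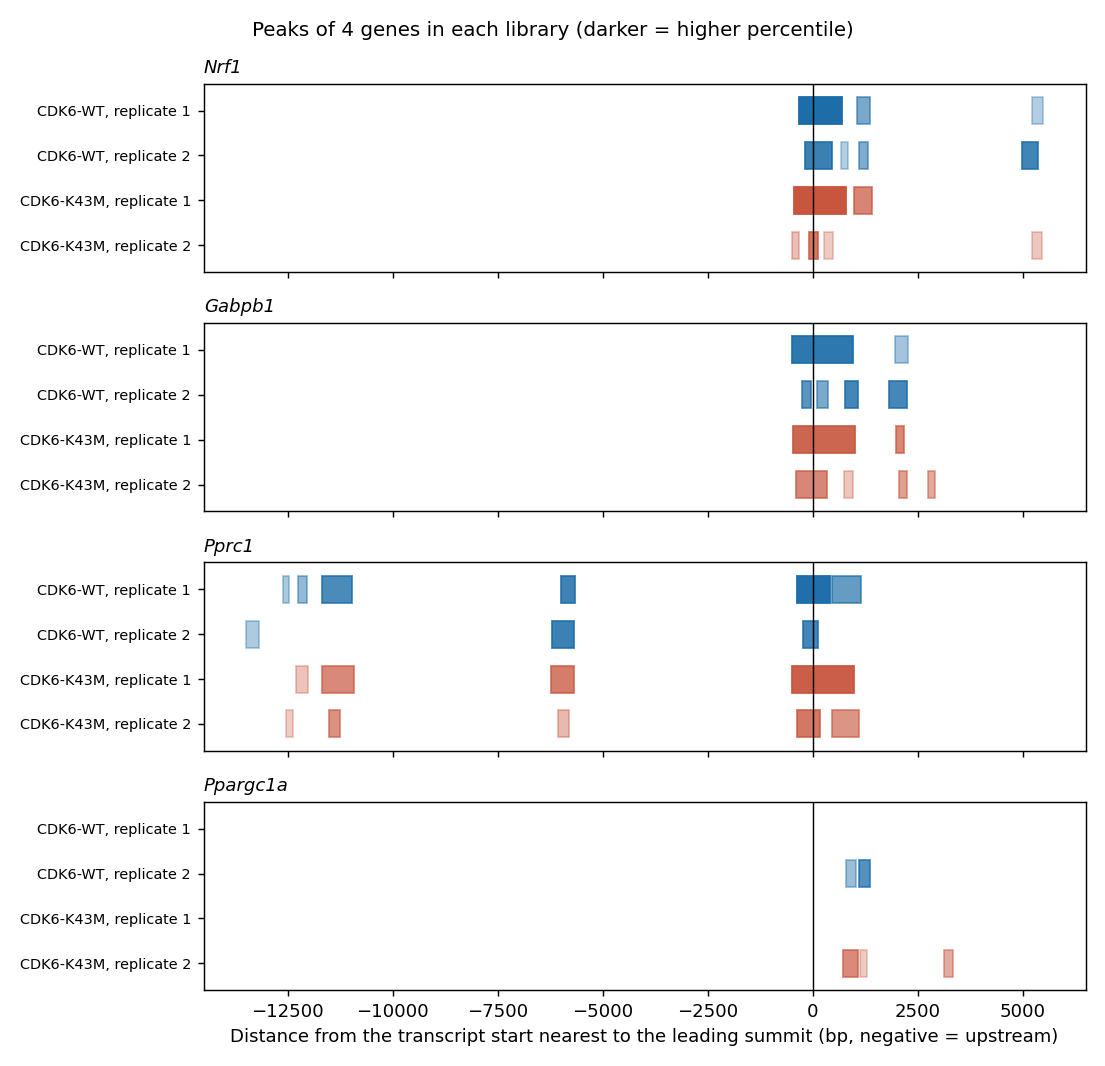
Peaks of Nrf1, Gabpb1, Pprc1 and Ppargc1a are drawn as boxes to scale, with 1 row per library, against the distance in bp from the transcript start nearest to the leading summit, and darker boxes have a higher percentile. Replicate 1 libraries show a single wide box or a closely set pair at the starts of Nrf1, Gabpb1 and Pprc1 where replicate 2 libraries show narrower ones, and the boxes of Ppargc1a lie in the replicate 2 rows alone. Peaks of Nrf1 and Gabpb1 deeper in the gene bodies are outside the plotted range.

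Esrra encodes ERRα, an orphan nuclear receptor through which PGC-1 coactivators reach many mitochondrial genes. Its percentiles were 76.5 and 56.1 in CDK6-WT and 80.3 and 16.2 in CDK6-K43M. The CDK6-K43M libraries thus lay on both sides of the CDK6-WT libraries, with 38 and 17 reads in CDK6-WT and 36 and 10 reads in CDK6-K43M. The variants differed by 3.84 points in replicate 1 and by -39.8 points in replicate 2, and by -18.0 points when pooled (exact two-sided permutation p = 1). The expected background at the summit was 4.12 reads in CDK6-WT replicate 1 and 1.57 to 2.46 reads in the other 3 libraries. Summits were spread from 272 bp to 23 bp upstream of the start. The NRF-1 letters printed above lay 13 bp and 50 bp from the summits of CDK6-WT replicates 1 and 2. They lay 140 bp and 109 bp from those of CDK6-K43M replicates 1 and 2. The NRF-1 core lay 93 bp and 56 bp from the CDK6-WT summits and 246 bp and 3 bp from the CDK6-K43M summits, in the same order.

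The last step of the chain is the set of factors that act inside the organelle. TFAM packages mitochondrial DNA and bends its promoters, TFB2M melts the promoter together with the mitochondrial RNA polymerase, and TFB1M methylates the small ribosomal RNA of the mitochondrion. The Tfam gene had percentiles of 87.7 and 39.8 in CDK6-WT and 91.3 and 67.7 in CDK6-K43M. CDK6-K43M was higher in both replicate numbers, by 3.58 and 27.9 points (pooled difference 15.7, exact two-sided permutation p = 0.667). The reads at the summit followed this order in replicate 1 but not in replicate 2. Summits held 42 and 25 reads in CDK6-WT and 47 and 22 reads in CDK6-K43M, and the expected background was 3.09, 5.44, 2.46 and 2.97 reads in the same order. Set against the background of the whole genome instead, the summit of CDK6-K43M was at 0.907 times that of CDK6-WT in replicate 1 and at 0.972 times in replicate 2. The percentile and the read ratio therefore pointed in opposite directions at Tfam, and the local background of CDK6-WT replicate 2 was the highest of the 4.

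Tfam was also the gene with the summits farthest downstream among those bound in all 4 lists, 165 to 225 bp past the nearest annotated start. That start is the 5′ end of the gene model, and the RefSeq start of the printed promoter lies downstream of it. All 4 summits lay upstream of the RefSeq start, so their place downstream depends on the annotation used. The ETS letters of the printed promoter lay 13 to 33 bp from the 4 summits. Tfb1m had percentiles of 64.8 and 43.9 in CDK6-WT and of 84.1 in CDK6-K43M replicate 1, and no peak in CDK6-K43M replicate 2 (pooled difference -12.3 with that library at 0, exact two-sided permutation p = 1). In CDK6-K43M replicate 1 the promoter was listed as a pair of peaks with 39 reads each, at 314 bp downstream and 120 bp upstream, and the CDK6-WT summits at 125 bp and 100 bp upstream matched the upstream one. The shift of the strongest summit at Tfb1m is thus a change of rank between neighbouring peaks.

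Tfb2m showed the largest percentile difference between the variants among the 10 genes. Its percentiles were 92.0 and 19.5 in CDK6-WT and 98.5 and 67.2 in CDK6-K43M, with 38 and 14 reads in CDK6-WT and 64 and 17 reads in CDK6-K43M. CDK6-K43M was higher in both replicate numbers, by 6.44 and 47.7 points, but the 67.2 of CDK6-K43M replicate 2 lay below the 92.0 of CDK6-WT replicate 1, so that the variants overlapped (pooled difference 27.1, exact two-sided permutation p = 0.667). The summits spanned 29 bp, 71 to 100 bp upstream of the start, and lay 77 to 107 bp from the NRF-1 letters or their core. SP1 letters lay nearer, 24 and 19 bp from the CDK6-WT summits and 48 and 39 bp from the CDK6-K43M summits. This window is shared with the promoter of Cnst.

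**Figure D3:**
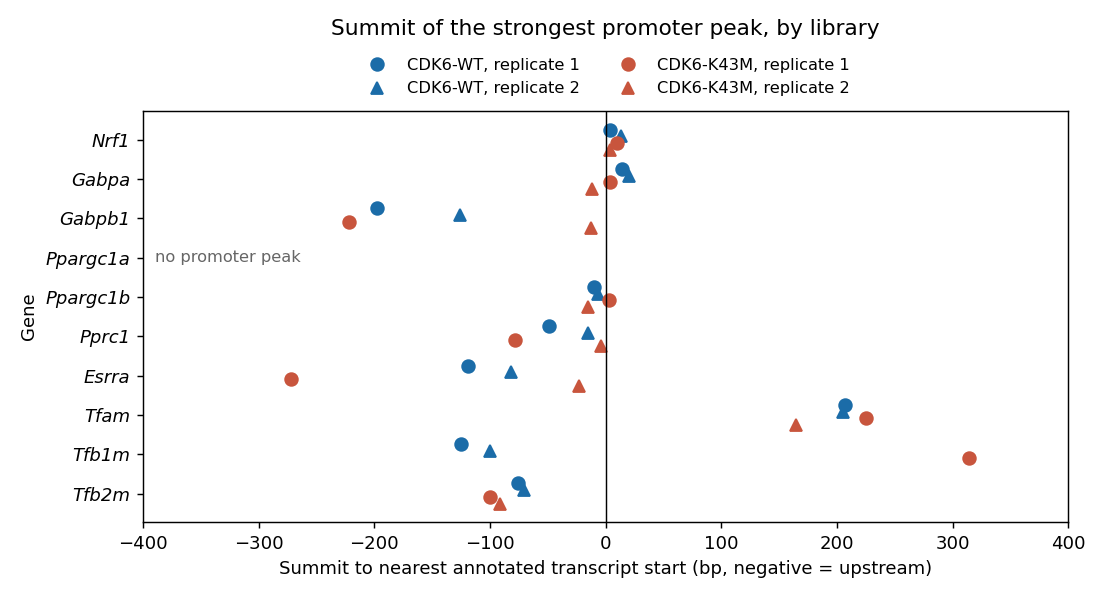
The distance of the strongest promoter summit from the nearest annotated transcript start is plotted in bp for each gene and library, with negative values upstream. Summits of Nrf1, Gabpa and Ppargc1b lie within 20 bp of a start in all 4 libraries. Those of Tfam lie 165 to 225 bp downstream of the 5′ end of its gene model, but upstream of its RefSeq start. Those of Gabpb1, Esrra and Tfb1m are spread over more than 200 bp, most widely at Tfb1m.

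Over the 8 members bound in all 4 lists, the strongest summits ranged over a median of 46 bp between libraries, and over all 7312 such genes over a median of 130 bp. Their median distance from the nearest start was 57.8 bp, against 75.5 bp for all such genes. Ordered by mean percentile, the genes ran from Gabpa (92.0), Nrf1 (88.0), Pprc1 (84.8), Gabpb1 (74.98), Tfam (71.7), Tfb2m (69.3), Ppargc1b (67.5) and Esrra (57.3) to Tfb1m (48.2). The ranges of the 4 libraries overlapped between each pair of neighbours in this order, and Pprc1 above Gabpb1 was the only pair of neighbours with the same order in all 4 libraries. Only Gabpa remained bound in all 4 libraries when each list was cut to its 10000 strongest peaks, a cut at which 5.98% of all genes had a promoter peak in all 4.

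The replicate numbers differed more than the variants. Of the 9 bound members, 8 were higher in replicate 1 than in replicate 2 within both variants, as were 70.9% of the 11403 protein-coding genes with a promoter peak in any list. At 8 members the difference between replicate numbers exceeded the difference between variants in size, as it did at 82.2% of those genes. The median of replicate 1 minus replicate 2 was 26.1 points over the bound members and 24.7 points over all genes with a peak. CDK6-K43M minus CDK6-WT had a median of -5.10 points over the members and of 1.06 points over all genes, with quartiles of -7.14 and 9.97 points.

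By percentile, CDK6-K43M was higher in both replicate numbers at Tfam and Tfb2m and lower in both at Gabpa, Gabpb1 and Pprc1. At Ppargc1b, Esrra and Tfb1m the sign differed between the replicate numbers, and at Nrf1 the variants differed by 0.0039 points in replicate 1 and by -10.2 in replicate 2. Over all genes with a peak, 23.6% were higher and 17.5% lower in both. Of the merged regions at the members, 10 of 15 over promoters and 7 of 15 in gene bodies were bound by both variants, and 0 were found in both libraries of a variant and in neither of the other. Over the whole series, 59.7% of 16594 regions over protein-coding promoters and 32.6% of 40154 other regions were bound by both. Regions in both libraries of CDK6-WT alone numbered 44 over promoters and 160 elsewhere, and those of CDK6-K43M alone 151 and 563.

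Counting error was 1 limit on the differences that could be seen. For each replicate number the reads at the strongest summit, divided by the genome-wide background of the library, were compared between the variants, with an exact 95% interval that covers counting error only. Each library gave its own strongest summit, so the sites compared can differ. In replicate 1 they lay 119 bp (CDK6-WT) and 272 bp (CDK6-K43M) upstream of the nearest start at Esrra. At Tfb1m they lay 125 bp upstream and 314 bp downstream, in the same order. The ratio of CDK6-K43M to CDK6-WT at Nrf1 was 0.984 (0.681 to 1.43) in replicate 1 and 0.829 (0.424 to 1.59) in replicate 2. At Gabpa it was 0.924 (0.638 to 1.34) and 0.690 (0.374 to 1.24). At Tfb2m it was 1.37 (0.900 to 2.1) and 1.34 (0.622 to 2.94), the highest of the genes in both replicate numbers, and at Esrra 0.768 (0.473 to 1.24) and 0.650 (0.266 to 1.5), the lowest in both. Over all genes with peaks in both lists the median ratio was 1.01 in replicate 1 and 0.967 in replicate 2. Of the 8 members with a ratio in both replicate numbers, 6 were below 1 in both (Nrf1, Gabpa, Gabpb1, Pprc1, Esrra and Tfam), 1 was above 1 in both (Tfb2m) and Ppargc1b was mixed, where 26.9% of 7312 genes were below and 22.5% above in both. The read ratios and the percentiles thus gave different directions at Tfam in both replicate numbers and at Esrra in replicate 1, and at Nrf1 in replicate 1 both were close to no difference. All 17 intervals of the members included 1. At Nrf1 in replicate 1, with the most reads, the interval from counting error alone still ran from 0.681 to 1.43 times. Spread between libraries is not part of these intervals. These ratios compare libraries and not conditions.

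**Figure D4:**
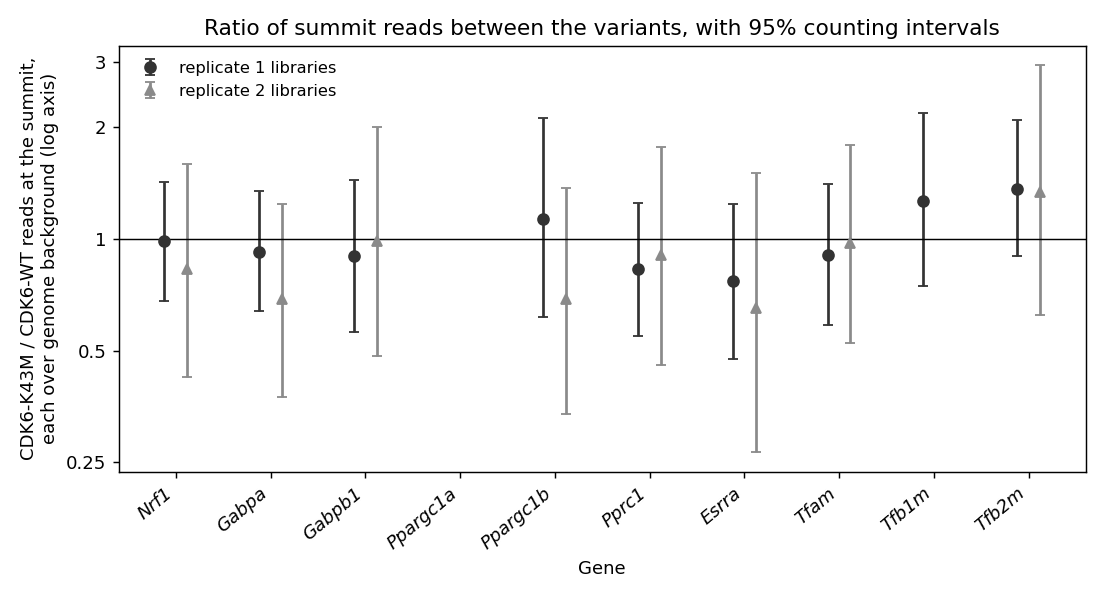
The ratio of CDK6-K43M to CDK6-WT reads, each over the genome-wide background of its library, is plotted per gene on a log axis. Reads are those at the strongest promoter summit of each library, which can differ in position between the variants. Exact 95% counting intervals are drawn for the replicate 1 libraries (circles) and the replicate 2 libraries (triangles). All intervals cross the line at 1, Tfb2m stands highest and Esrra lowest in both replicate numbers, and Ppargc1a and replicate 2 of Tfb1m have no value because a peak was missing.

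Sequence at the summits was compared with 7802 bound promoters, using 100 bp to either side of the strongest summit and leaving out Ppargc1b, whose sequence was not used here. Each gene had 1 summit in this count, from the library where its promoter peak had the highest percentile. The letters searched were set after these promoter sequences had been seen. The NRF-1 letters stood near the summit at 1 of 8 members, Gabpb1, against 14.7% of bound promoters, and the core at 0 of 8 against 6.79%. ETS letters were found at 2 (Gabpa and Tfam) against 19.4%, SP1 letters at 3 (Gabpb1, Tfb1m and Tfb2m) against 31.9%, and YY1 letters at 2 (Nrf1 and Gabpa) against 7.61%. None of the 8 held the ERR, CRE or E-box letters there, which stood at 0.244%, 3.01% and 8.96% of bound promoters. With 250 bp to either side, the NRF-1 letters were found at 3 members (Gabpb1, Esrra and Tfb2m) against 1480 of the 7802 bound promoters and the core at 3 (Gabpa, Esrra and Tfb2m) against 9.52%. The count depended on the width of the window and on the library that gave the summit, CDK6-K43M replicate 1 for Tfb2m and Esrra. From the CDK6-WT summits the NRF-1 letters lay 83 bp and 78 bp at Tfb2m and 13 bp and 50 bp at Esrra. The core lay 82 bp and 77 bp, and 93 bp and 56 bp, from them. The YY1 letters counted at Nrf1 lay 112 bp from the summits of CDK6-WT replicate 1 and CDK6-K43M replicate 2. A match describes letters and not a bound factor.

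**Figure D5:**
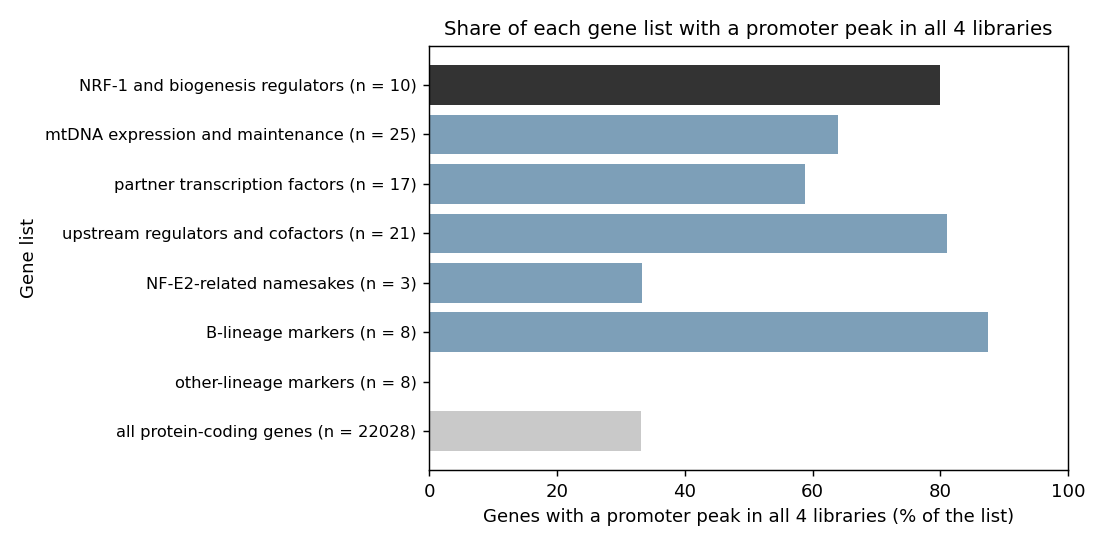
Bars give the percentage of each gene list with a promoter peak in all 4 libraries, with the number of genes in the list beside its name. The NRF-1 and biogenesis regulators (80.0%) stand beside their upstream regulators and cofactors (81.0%), above the genes of mitochondrial DNA expression and maintenance (64.0%) and all protein-coding genes (33.2%), and the genes of other lineages are at 0.

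Genes of the wider pathway were counted in the same way. A promoter peak in all 4 lists was found at 81.0% of upstream regulators and cofactors. The share was 64.0% for genes that express and maintain mitochondrial DNA and 58.8% for partner transcription factors. It was 33.2% over all protein-coding genes and 56.0% over those with a promoter CpG ratio of at least 0.6. Of all genes, 41.3% were bound by both variants and 48.2% had no promoter peak. Of 21 upstream regulators and cofactors, 17 had a promoter peak in all 4 lists and 0 lacked one altogether, and the strongest were Prkab1, a subunit of the energy sensor AMPK, Mapk14, the p38α kinase, and Sirt3, a mitochondrial deacetylase, with mean percentiles of 89.1, 88.1 and 87.3. Of 25 genes that express and maintain mitochondrial DNA, 16 had a peak in all 4 lists and 21 were bound by both variants. Dna2 and Mgme1, nucleases that act on mitochondrial DNA, and Mrpl12, a protein of the mitochondrial ribosome, led this list with 96.0, 89.8 and 93.4, and Mterf1b had no peak. Among 17 partner transcription factors 10 had a peak in all 4 lists, led by Gabpb2 (93.6), which encodes another GABP subunit, and by Mef2c (90.0) and Atf2 (80.0). The 4 without a peak were the nuclear receptors Esrrb, Esrrg, Ppara and Pparg, while other receptors of the list, Rxrb, Ppard, Thrb and Thra, had one in all 4 lists. Of the genes that share the NRF abbreviation, Nfe2l2 had a peak in all 4 lists, Nfe2l1 in 3 and Nfe2l3 in none.

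The genes closest to Nrf1 in their 4 percentiles were BC004004, Dhodh and Slc26a8, at Euclidean distances of 1.84, 1.99 and 2.20 percentile points over the 4 libraries. Mapk14, named above, adjoins Slc26a8 and had the same 4 percentiles, so the third place is a tie. Within 5 points of Nrf1 lay 46 of the 22027 other protein-coding genes.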

How the data were processed

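ChIP-seq against the HA tag was analysed in 4 libraries, 2 with CDK6-WT and 2 with CDK6-K43M, grouped by their titles. The 2 input libraries were not used here other than through the peak calls. Per the submitters' processing notes, the authors used FastQC 0.11.5, Trimmomatic 0.36, BWA 0.7.15, bedtools, SAMtools 1.3.1 and MACS2 2.1.0 with mm10, and each library has its own peak list. The deposited lists give, per peak, the −log10 p-value and −log10 q-value, a ratio (fold enrichment above local background), a score, and the summit offset (other). The percentile of a peak was its rank by −log10 q within its list. Read numbers are not in the lists. They were solved from fold enrichment and −log10 p with a tolerance of 0.001 in −log10 p for whole reads, and between 99.2% and 100% of peaks had exactly 1 match. On simulated lists the true number was returned for at least 99.99% of peaks. Lists show peaks past the caller's threshold only, so a missing peak is not an absence of signal.

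Promoters were taken from GENCODE M21 on GRCm38 (mm10), whereas the authors used M13. Regions are peaks of the 4 lists joined where they shared 1 bp or more. The test between variants was the exact permutation test, two-sided, with 6 possible assignments. Intervals of read ratios are exact binomial, at 95%, and cover counting error only. RefSeq promoters (GRCm38.p6) were used for 9 of the 10 genes, and the gene on chromosome 18 was left out of sequence work. The motif letters were set after the promoter sequences had been seen. Named genes were all members, per list those without a peak and the 3 with the highest mean percentile, the 3 genes nearest to Nrf1, and genes that share a promoter peak. Members, lists, motifs and tests were chosen with earlier results of these data known. Same-numbered libraries were not stated to come from the same culture. The alternatives were stricter or shorter lists, other promoter and motif windows, other rankings, a replicate block, and leaving out each library. Python 3.11.15, numpy 2.4.6, pandas 2.3.3, scipy 1.17.1, pysam 0.24.0, samtools 1.23.1 and matplotlib 3.10.9 were used.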

Additional observations from a re-analysis of the deposited data

How the results depend on the processing

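Of 164 alternative values over 26 results, 14 reversed direction and 18 more moved (counts by over 1.5 times, or to 0). The other 132 are counts within 1.5 times and differences that kept their direction, though not always their size. With a minimum −log10 q of 10, members bound in all 4 lists fell from 8 to 3 and those bound by both variants from 9 to 5, while the share of all genes bound in all 4 lists fell from 33.2% to 8.41%. Cut to the strongest 10000 peaks, the lists gave 1 and 4, and 5.98% of all genes. Both losses came mainly from the replicate 2 lists, where CDK6-WT kept 4 members under either setting and CDK6-K43M kept 3 and 1. The share of all genes bound by both variants was not computed under these settings, so those counts have no background beside them. Promoter windows of 500 bp, coding transcripts alone, summits inside the window and merging within 500 bp left 8 and 9 where run. Leaving out each library gave 8 to 9 members bound in all remaining lists. The count bound by both variants was also 8 to 9. It is not a separate check, since with 3 lists left it asks for a peak in all of them. The difference in bound members moved between -1 and 0, the latter without CDK6-K43M replicate 2. With the replicate block the difference was again -0.5, since the mean of paired differences equals the pooled one by construction, and 2 pairs can pass no threshold. The 14 reversals were all percentile differences of CDK6-K43M minus CDK6-WT with 1 library left out. The lowest and highest values were -18.5 and 8.29 at Nrf1, -16.7 and 2.48 at Gabpa, -15.8 and 11.1 at Gabpb1, -17.9 and 3.18 at Ppargc1b, -14.4 and 6.0 at Pprc1, -50.0 and 14.0 at Esrra, -8.21 and 39.7 at Tfam, -54.3 and 29.8 at Tfb1m, -9.18 and 63.3 at Tfb2m, and -14.9 and 10.3 for the median over the members. The cause was not tested. Ranking by fold enrichment kept every direction and moved Tfam from 15.7 to 27.8 and Esrra from -18.0 to -10.7. The counting intervals of the read ratios all included 1, which does not separate no difference from one too small for these read numbers.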
